A study of Mus musculus with 6 samples.

Results

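Long noncoding RNAs that were well expressed in cultured mouse dendritic cells are described here. Control cells are compared with cells exposed to DB2313, an inhibitor of the transcription factor Spi1 (PU.1). The members were selected on measured values. They are the rows of the count table that the annotation gives as lincRNA, antisense, sense intronic, bidirectional promoter lncRNA or processed transcript, and that had a mean of at least 100 raw counts over the 6 libraries. There were 119 members among 9650 rows of these 5 classes and 54532 rows in all. At the limit, the members just inside were AI480526 with a mean of 100.3 counts, 4933412E12Rik with 102.3 and B230354K17Rik with 102.3. The rows just outside were Gdap10 with 99.3, Kcnq1ot1 with 98.3 and Gm46224 with 96.2.

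Both groups held 3 libraries of total RNA from cells that the labels call dendritic cells, kept in culture medium with serum and antibiotics. The labels give the treatment of the first group as control and that of the second as DB2313. Neither the dose, the time of treatment, the strain nor the age of the mice is given in the labels, and the study's text describes macrophages rather than dendritic cells. Nothing states that the libraries of a group came from separate cultures or animals, so p-values measure the spread between these libraries, which may be technical.

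Total counts ran from 16146743 to 19764677 per library. A list of 13 dendritic cell markers summed to between 12248 and 12405 CPM (counts scaled to a fixed library size) in the control libraries. In the DB2313 libraries the sum lay between 10528 and 12054. Cd74, H2-Aa, H2-Eb1 and H2-Ab1, genes of class II antigen presentation, had control means of 6557, 1790, 1621 and 1310 CPM. Control means of the other listed genes ran from 0.021 CPM for Cd209a to 273 for Irf8. The sum therefore rests mainly on class II genes and does not by itself identify the cells. Of the 12 listed genes that were tested, 3 fell with DB2313 by edgeR (Itgax, Batf3 and Irf4), and 8 had an unadjusted p under 0.05. The median log2 fold change over the 12 was -0.19, with 1 positive value. DESeq2 called 4 of them lower and limma-voom 3. Of 11 macrophage markers 7 fell and 1 rose, of 8 neutrophil markers 2 rose, and of 6 mast cell and basophil markers 1 rose. Their summed CPM ran from 1781 to 1890 in control and from 1378 to 1628 in DB2313 libraries for macrophage markers, from 4380 to 4931 and from 4440 to 5850 for neutrophil markers, and from 1262 to 1332 and from 1255 to 1502 for mast cell and basophil markers. The 5 B cell markers summed to at most 6.44 CPM in any library. Of 7 T cell markers, at 182 to 213 CPM in control and 182 to 269 in DB2313 libraries, 0 rose or fell by edgeR, DESeq2 or limma-voom, and 1 had an unadjusted p under 0.05. The part of these cell types in the results on noncoding RNAs was not tested, and in bulk RNA fewer cells of a type and less RNA per cell cannot be told apart.

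Long noncoding RNAs are transcripts made and often spliced like messenger RNAs but with no long open reading frame. Some act in the nucleus as scaffolds, such as Neat1 in paraspeckles, or near their own locus, as imprinted transcripts do. Others are known mainly for what their introns or exons carry, small nucleolar RNAs (snoRNAs) or microRNAs (miRNAs), and many antisense and divergent transcripts have no known role. PU.1 is an ETS-family factor that myeloid cells depend on, and its sites hold a purine-rich GGAA core.

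To show the sequence at the start of members whose level rose with DB2313, the promoter windows of 4 of them are printed from RefSeq, build GRCm38.p6. Each runs from 250 bases before to 50 bases after the RefSeq start, 5′ to 3′ on the strand of the gene. Capitals mark GAGGAA, a purine-rich ETS-type word, and GAAANNGAA, an interferon-response-type word, each searched on both strands, so that TTCCTC also counts for the first.

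Gm6093 (chr13:33569268-33569567, minus strand): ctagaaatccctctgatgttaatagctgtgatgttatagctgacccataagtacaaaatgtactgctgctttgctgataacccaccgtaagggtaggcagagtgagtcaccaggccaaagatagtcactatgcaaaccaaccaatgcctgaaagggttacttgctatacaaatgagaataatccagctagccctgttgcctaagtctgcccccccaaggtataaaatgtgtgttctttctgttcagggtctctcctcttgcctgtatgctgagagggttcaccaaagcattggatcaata
AW112010 (chr19:11050517-11050816, minus strand): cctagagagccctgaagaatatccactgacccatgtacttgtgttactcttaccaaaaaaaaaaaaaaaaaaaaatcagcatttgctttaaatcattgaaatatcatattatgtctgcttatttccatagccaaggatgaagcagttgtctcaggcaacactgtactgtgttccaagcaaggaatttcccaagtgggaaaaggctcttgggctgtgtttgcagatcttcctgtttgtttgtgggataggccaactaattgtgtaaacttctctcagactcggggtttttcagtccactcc
BE692007 (chr19:11482530-11482829, minus strand): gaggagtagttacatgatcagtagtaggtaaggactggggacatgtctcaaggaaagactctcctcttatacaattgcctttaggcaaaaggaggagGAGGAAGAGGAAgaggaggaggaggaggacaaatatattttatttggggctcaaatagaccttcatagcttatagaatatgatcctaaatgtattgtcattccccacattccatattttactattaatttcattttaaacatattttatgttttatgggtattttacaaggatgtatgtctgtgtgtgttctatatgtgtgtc
Gm36161 (chr13:120010092-120010391, plus strand): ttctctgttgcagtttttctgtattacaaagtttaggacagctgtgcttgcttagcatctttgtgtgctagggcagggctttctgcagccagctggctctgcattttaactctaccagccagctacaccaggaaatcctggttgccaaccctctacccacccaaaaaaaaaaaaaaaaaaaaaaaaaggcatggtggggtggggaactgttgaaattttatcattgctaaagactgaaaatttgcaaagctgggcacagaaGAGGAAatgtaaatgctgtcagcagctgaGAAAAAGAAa

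The RefSeq start matched that of the count table for Gm6093 and AW112010. It lay 48 bases away for Gm36161 and 1999 bases away for BE692007, so the last window may not be the one used in these cells. Neither word was found in the windows of Gm6093 and AW112010, GAGGAA was found 2 times next to each other in the window of BE692007, and both words were found in the window of Gm36161. RefSeq held 86 windows for 75 of the 119 members. GAGGAA was present in 45.3% of them, against 28.3% of all 32851 windows and 27.2% of the windows of protein-coding genes with a mean of at least 100 counts. GAAANNGAA was present in 12.8% of the member windows, 8.56% of all windows and 7.43% of the protein-coding windows. Of the 8 members with a window that also passed the expression test, 4 held GAGGAA and 1 held GAAANNGAA. These matches are a description of letters, not of binding.

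Several members are the primary transcripts of miRNAs known from myeloid cells. Their mature sequences from RefSeq are printed with the seed, bases 2 to 8, in capitals, because the seed decides which messenger RNAs a miRNA can pair with. miR-15a-5p and miR-16-5p, both carried by Dleu2, share 1 seed, and the others differ.

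miR-223-3p (host F630028O10Rik): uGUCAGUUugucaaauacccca
miR-15a-5p (host Dleu2): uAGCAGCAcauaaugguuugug
miR-16-5p (host Dleu2): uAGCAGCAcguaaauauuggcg
miR-155-5p (host Mir155hg): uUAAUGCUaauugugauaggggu
miR-142a-3p (host Mir142hg): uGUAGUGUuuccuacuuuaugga
miR-22-3p (host Mir22hg): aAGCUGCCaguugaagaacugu

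The members took a small part of the library, and a few of them took most of that part. They held 0.490%, 0.467% and 0.487% of the counts in the control libraries and 0.522%, 0.526% and 0.541% in the DB2313 libraries. The groups did not overlap. The means were 0.481% ± 0.0123 (SD, n = 3) and 0.530% ± 0.00985 (SD, n = 3), with an exact two-sided permutation p = 0.1, the smallest that 3 against 3 libraries can give. AW112010 alone held 11.4% of all member counts, the top 3 members 27.4% and the top 10 members 54.4%. Without AW112010 the shares were 0.436% ± 0.0117 and 0.460% ± 0.0170 (SD, n = 3 each), again with exact p = 0.1. Gm26917, which lies beside a ribosomal RNA row, and Ifi30, whose symbol names a protein, remained in that share and also rose. The share without them was not computed, so a rise beyond these abundant rows is not shown.

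To ask which members changed with DB2313, a quasi-likelihood test in edgeR was fitted to all 14174 genes that passed a filter on low counts, and p-values were adjusted over all of them by the Benjamini-Hochberg method. Of all genes tested, 10.6% passed an adjusted p of 0.05, 4.66% as higher and 5.94% as lower with DB2313. All 119 members were tested, and 15 (12.6%) passed, 9 higher and 6 lower. Among all genes with a mean of at least 100 counts, 12.8% passed. The members' share was close to both backgrounds, although the median count was 209.7 for members and 696 for genes at or above that limit. The median log2 fold change was 0.026 over the members and 0.00082 over all genes tested, and 64 members had a positive and 55 a negative value. In 31 members (26.1%) the groups did not overlap in CPM, against 27.4% of all genes, and these 31 included all 15 that passed. Of the 15, 2 changed by over 2-fold, Gm6093 and BE692007. Their control means, 78.7 and 70.0 raw counts, lie under the limit of 100, so they became members through their DB2313 libraries, and their presence among the members is not independent of their rise. The other 13 that passed had a mean of at least 100 counts in both groups. These include Ifi30 and Trerf1, whose symbols name proteins and whose counts may be those of messenger RNA, which was not tested. Among the 109 members whose symbol names no protein, 8 rose and 5 fell, 11.9% of them. The number that passed depended on single libraries: without DB2313 replicate 3 it was 27 (13 higher and 14 lower, 22.7% of members against 16.6% of all genes), and without control replicate 3 it was 8 (7 higher and 1 lower, 6.72% against 5.89% of all genes). Without control replicate 1 it was 9 (7 higher and 2 lower, 7.56% against 5.84%), and without DB2313 replicate 2 it was also 9 (6 higher and 3 lower, 7.56% against 5.07%). The share of all genes that passed moved with these libraries too.

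**Figure D1:**
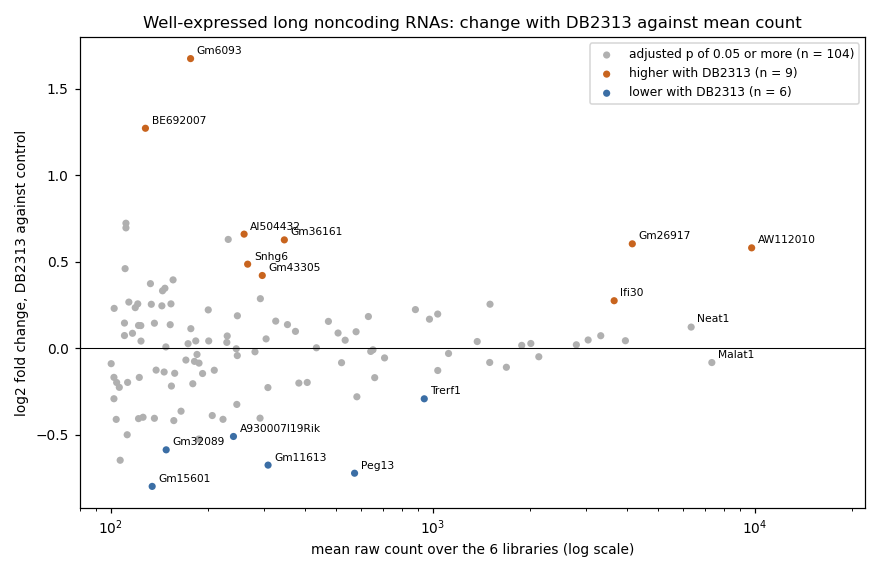
Each point is 1 of the 119 members, with its mean raw count on a log axis and its log2 fold change with DB2313 on the vertical axis. The 9 members that passed as higher and the 6 that passed as lower are coloured and named, from Gm6093 at 1.68 to Gm15601 at -0.80, and Malat1 and Neat1 lie near 0.

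By class, 6 of the 50 lincRNAs rose and 2 fell, with a median log2 fold change of 0.032. Those that rose include Gm6093, which met the count limit only through its DB2313 libraries. For comparison, 10.6% of all genes tested passed, and 12.8% of those with a mean of at least 100 counts. Of the 37 processed transcripts 3 rose and 2 fell, and of the 25 antisense members 0 rose and 1 fell by edgeR. In the antisense class 7 members had an unadjusted p under 0.05, and DESeq2 and limma-voom each called 1 higher and 1 lower. The member called higher was A930024E05Rik, which met the count limit only through its DB2313 libraries. None of the 6 bidirectional promoter transcripts passed by edgeR, DESeq2 or limma-voom, and 1 had an unadjusted p under 0.05. The only sense intronic member, Peg13, fell.

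Gm6093, an unstudied lincRNA of chromosome 13 (chr13:33562486-33569317, GRCm38, minus strand), had the highest log2 fold change of the members, and it met the count limit only through its DB2313 libraries. Its raw counts were 89, 73 and 74 in the control libraries and 317, 279 and 230 in the DB2313 libraries. The lowest treated library held more than 2 times the counts of the highest control library. This gave a log2 fold change of 1.68 ± 0.17 (SE), or 3.19-fold, with adjusted p = 2.33e-05. The nearest tested protein-coding gene by start site, Nqo2, lay 395370 bases away and had a log2 fold change of -0.08 ± 0.09 (SE, adjusted p = 0.673).

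BE692007 (chr19:11470166-11484578, minus strand) lies on the opposite strand of Ms4a6c, a membrane protein gene of the Ms4a family, and 20.8% of its exon bases are also exon bases of a coding gene. Its raw counts were 91, 64 and 55 in control and 156, 210 and 193 in DB2313 libraries, and the groups did not overlap. The log2 fold change was 1.27 ± 0.20 (SE, adjusted p = 0.000714). Ms4a6c itself had 24.8, 23.5 and 22.1 CPM in control and 45.6, 60.0 and 66.5 CPM in DB2313 libraries, a log2 fold change of 1.29 ± 0.12 (SE, adjusted p = 1.09e-05). The strandedness of the libraries is not given in the sources used here, so reads of the pair cannot be told apart where they overlap.

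AW112010 (chr19:11047617-11050566, minus strand), an interferon-inducible RNA of immune cells, was the member with the most counts and, at 744 CPM per kilobase, also the highest level per length. Its raw counts were 7313, 7201 and 7595 in control and 12259, 14358 and 9912 in DB2313 libraries. All treated libraries lay above all controls, with DB2313 replicate 3 the lowest of them at 596 CPM against 744 and 720. The log2 fold change was 0.58 ± 0.08 (SE, adjusted p = 0.000309). Its nearest tested coding gene, Ms4a8a, had a log2 fold change of -0.15 ± 0.34 (SE, adjusted p = 0.847) at a few CPM.

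Gm26917 (chr17:39843013-39846341, plus strand) ends 12 bases from a row annotated as ribosomal RNA, CT010467.1. Its raw counts were 3015, 2784 and 3531 in control and 5100, 6043 and 4508 in DB2313 libraries, a log2 fold change of 0.60 ± 0.09 (SE, adjusted p = 0.00044). The groups did not overlap. That ribosomal row had a log2 fold change of -0.18 ± 0.09 (SE, adjusted p = 0.258). Of the mitochondrial ribosomal RNAs, mt-Rnr1 rose by 0.61 ± 0.08 on the log2 scale (SE, adjusted p = 0.000161) and mt-Rnr2 had -0.045 ± 0.08 (SE, adjusted p = 0.794). Gm26917 counts were 17.5% to 27.9% of the counts of that row in control and 30.4% to 38.6% in DB2313 libraries. How far reads of precursor ribosomal RNA enter Gm26917 was not tested.

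Gm36161 (chr13:120010390-120018931, plus strand) had raw counts of 294, 228 and 247 in control and 374, 486 and 447 in DB2313 libraries, with no overlap. The log2 fold change was 0.63 ± 0.12 (SE, adjusted p = 0.00333). It has a near copy, Gm21188, with 95.7% identity over 1541 aligned bases, so the split of reads between the pair is uncertain. Gm21188 had a log2 fold change of 0.13 ± 0.11 (SE, adjusted p = 0.53).

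AI504432 (chr3:107039504-107054347, plus strand), whose start lies 3335 bases from that of the potassium channel gene Kcna3, had raw counts of 183, 210 and 177 in control and 335, 333 and 319 in DB2313 libraries. In CPM the controls lay at 11.1 to 13.2 and the DB2313 libraries at 16.7 to 20.3, with no overlap. The log2 fold change was 0.66 ± 0.13 (SE, adjusted p = 0.0041), while Kcna3 had -0.0072 ± 0.25 (SE, adjusted p = 0.991).

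The remaining 3 that rose changed by less. Snhg6, a snoRNA host gene, had raw counts of 200, 178 and 249 in control and 300, 379 and 291 in DB2313 libraries, a log2 fold change of 0.49 ± 0.14 (SE, adjusted p = 0.0334). Gm43305 had 0.42 ± 0.12 (SE, adjusted p = 0.0337). Ifi30 had 0.27 ± 0.08 (SE, adjusted p = 0.0372). It is given as a processed transcript here, but its symbol is that of a lysosomal thiol reductase gene. Its counts may therefore be those of messenger RNA, which was not tested. These 3 lost the call when some single libraries were left out, Snhg6 in 3 of 6 fits and Gm43305 and Ifi30 in 4 of 6.

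Peg13 (chr15:72805600-72810324, minus strand), an imprinted RNA expressed from the paternal allele, had the lowest adjusted p of the 6 members that fell. Its raw counts were 651, 688 and 718 in control and 414, 517 and 442 in DB2313 libraries. At 40.0 to 45.0 CPM in control and 25.1 to 26.6 CPM in DB2313 libraries the groups were far apart and tight. The log2 fold change was -0.72 ± 0.09 (SE, adjusted p = 0.000127). Peg13 lies within Trappc9, a trafficking complex gene on the same strand, which had a log2 fold change of 0.030 ± 0.09 (SE, adjusted p = 0.885).

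Gm15601 (chr14:45563834-45598512, plus strand) is antisense to Ddhd1, a phospholipase gene, and 16.6% of its exon bases are shared with it. It had 11.7, 8.47 and 10.6 CPM in control and 4.86, 5.47 and 7.39 CPM in DB2313 libraries, a log2 fold change of -0.80 ± 0.19 (SE, adjusted p = 0.0151). Ddhd1 fell too, from 158 to 179 CPM in control to 100 to 121 CPM in DB2313 libraries, with -0.59 ± 0.08 (SE, adjusted p = 0.000282).

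Gm11613 (chr11:97644184-97660367, minus strand), which starts 3047 bases from Mllt6 on the other strand and holds a miRNA gene in its span, had 23.3, 20.5 and 24.6 CPM in control and 17.2, 11.1 and 14.7 CPM in DB2313 libraries. Its log2 fold change was -0.68 ± 0.15 (SE, adjusted p = 0.00802), and that of Mllt6, a chromatin-binding protein gene, was -0.26 ± 0.07 (SE, adjusted p = 0.0359). Both were lower in each DB2313 library than in each control. Gm32089 had -0.59 ± 0.15 (SE, adjusted p = 0.0211), with 168, 170 and 176 counts in control and 109, 153 and 116 in DB2313 libraries, and its groups did not overlap.

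A930007I19Rik, whose start lies 877 bases from that of Ric1 on the other strand, had a log2 fold change of -0.51 ± 0.14 (SE, adjusted p = 0.0296), against 0.13 ± 0.10 (SE, adjusted p = 0.507) for Ric1. Trerf1 had -0.29 ± 0.08 (SE, adjusted p = 0.0375). Its symbol is that of a transcriptional regulator protein, and 10 members in all carry a symbol that names a protein or its pseudogene. How far reads of messenger RNA enter these rows was not tested. Of the 6 members that fell, Peg13 alone passed in each of the 6 fits that left out 1 library, Gm11613 passed in 4, Gm15601, Gm32089 and A930007I19Rik in 3 and Trerf1 in 1. Of the 9 that rose, 6 passed in each of these fits (Gm6093, BE692007, AI504432, Gm36161, Gm26917 and AW112010).

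**Figure D2:**
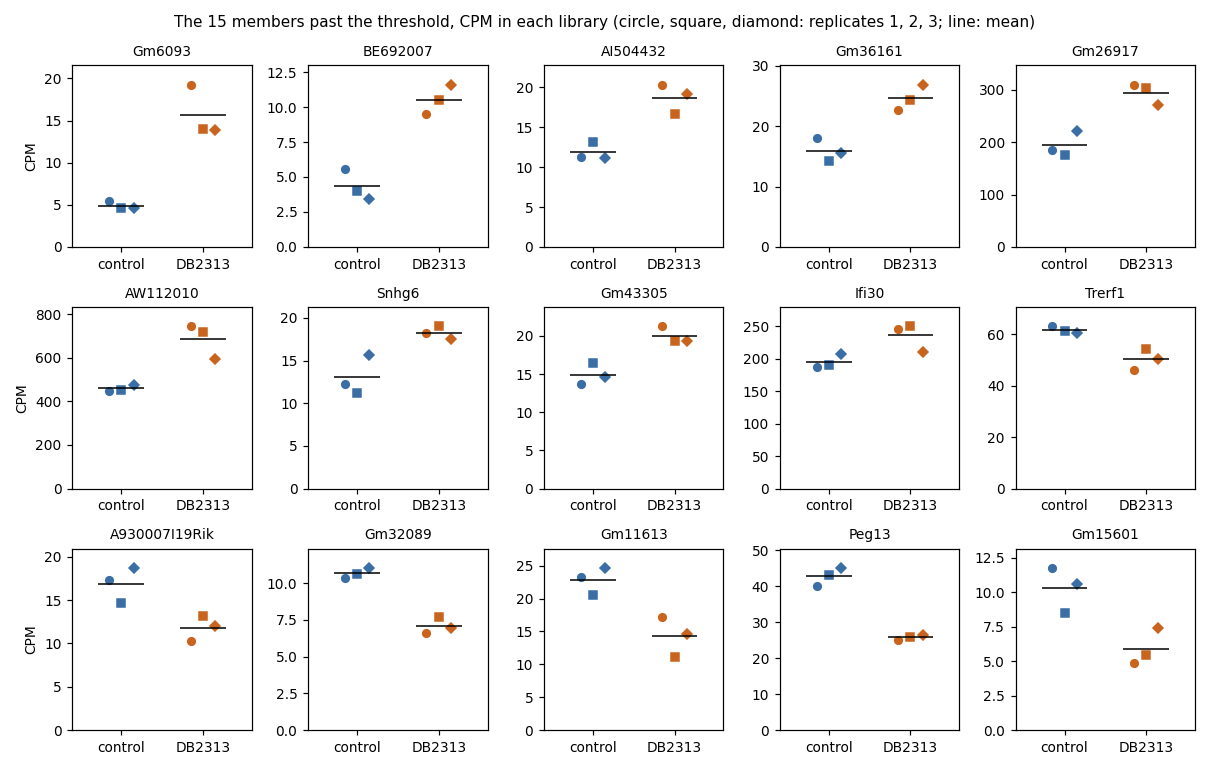
Each panel is 1 of the 15 members that passed the test, with CPM on an axis from 0, control libraries in blue on the left and DB2313 libraries in orange on the right; marker shape gives the replicate and the line the mean. In every panel the 3 DB2313 libraries lie on 1 side of the 3 control libraries, as for Peg13 at 25.1 to 26.6 against 40.0 to 45.0 CPM.

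Among members that missed the threshold, A930024E05Rik came closest, with 68, 106 and 63 counts in control and 154, 167 and 111 in DB2313 libraries, a log2 fold change of 0.72 ± 0.22 (SE) and adjusted p = 0.0507. DESeq2, limma-voom and edgeR with library totals passed it. Its groups did not overlap, while those of AI839979 (0.70 ± 0.22, adjusted p = 0.0619) and F730016J06Rik (0.63 ± 0.21, adjusted p = 0.0724) did. A930024E05Rik and AI839979, the latter with 78, 70 and 92 control counts, had control means under the count limit. Both became members through their DB2313 libraries, so their presence among the members is not independent of their rise. In all, 13 members had a group mean under the limit, and 2 of these passed.

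The abundant nuclear RNAs Malat1 and Neat1 did not pass. Malat1, an abundant RNA of nuclear speckles, had 7001, 8213 and 6552 counts in control and 4689, 6514 and 11141 in DB2313 libraries. The treated libraries lay on both sides of the controls, with a coefficient of variation of 49.4% against 12.3%. The log2 fold change was -0.08 ± 0.22 (SE, adjusted p = 0.87). Malat1 was called when DB2313 replicate 3, its highest library, was left out. Neat1, the scaffold of paraspeckles, had 309 to 398 CPM in control and 373 to 403 CPM in DB2313 libraries, a log2 fold change of 0.12 ± 0.08 (SE, adjusted p = 0.434). Neat1 was called with the replicate block and a gene length offset together, at 0.27, and in no other fit. Tug1 had -0.11 ± 0.09 (adjusted p = 0.515), Firre, an X-linked RNA of nuclear organisation, 0.19 ± 0.14 (adjusted p = 0.481), and 1810026B05Rik 0.046 ± 0.12 (SE, adjusted p = 0.873). The last is Chaserr, which lies next to the chromatin remodeller gene Chd2 and is known to restrain it, and Chd2 fell by 0.57 on the log2 scale (SE 0.09, adjusted p = 0.000557). The pair overlap on the same strand, with 30.5% of the exon bases of 1810026B05Rik shared with coding genes, so their reads are not fully separate. Of the 6 nuclear and imprinted members, 1 fell (Peg13) and 0 rose by edgeR, DESeq2 or limma-voom, and 1 had an unadjusted p under 0.05. The background was 10.6% of all genes tested, by edgeR, and so few members cannot be set apart from it. 2900097C17Rik, the mouse Norad RNA that binds Pumilio proteins, had 169 to 190 CPM in control and 173 to 192 CPM in DB2313 libraries.

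**Figure D3:**
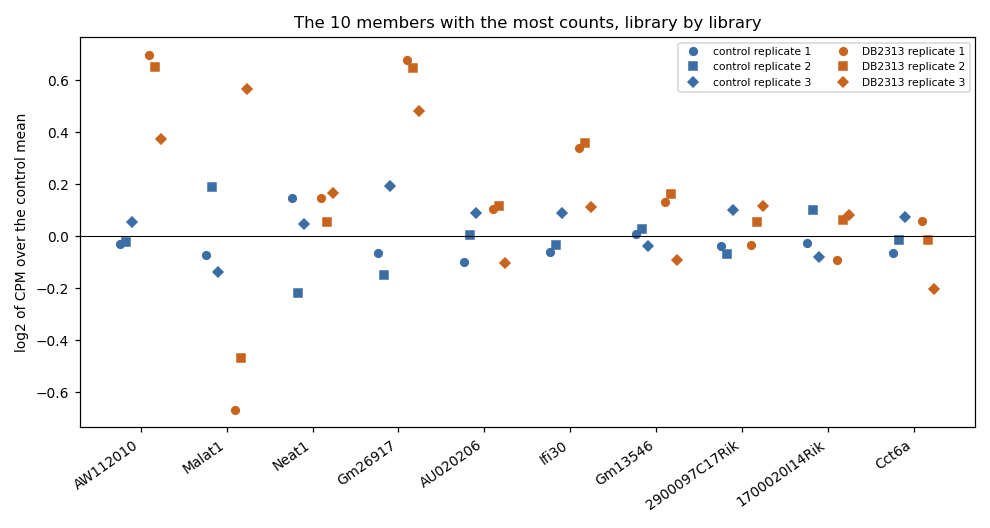
The 10 members with the most counts, each library plotted as the log2 of its CPM over the control mean, control in blue and DB2313 in orange. AW112010, Gm26917 and Ifi30 have all DB2313 libraries above the controls, Malat1 spreads from 285 to 669 CPM over the DB2313 libraries, and the other 6 overlap.

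The snoRNA hosts are spliced transcripts whose introns release snoRNAs, the guides of ribosomal RNA modification, and whose exons are often degraded. Of the 11 such members, 1 rose (Snhg6) and 0 fell by edgeR, DESeq2 or limma-voom, and 2 had an unadjusted p under 0.05. Their median log2 fold change was 0.14, with 7 positive, and values ran from -0.15 for Snhg17 to 0.49 for Snhg6. Over all genes tested 10.6% passed by edgeR, and 12.8% of those with a mean of at least 100 counts. Gas5, which also binds the glucocorticoid receptor, had 966, 866 and 911 counts in control and 1222, 1356 and 893 in DB2313 libraries, a log2 fold change of 0.20 ± 0.11 (SE, adjusted p = 0.284). Zfas1 had 0.22 ± 0.13 (SE, adjusted p = 0.35). For both, DB2313 replicate 3 was the lowest treated library and lay under the highest control, and both passed when it was left out. By position, 15 members held 44 snoRNA genes in their span, and of these 1 rose, 0 fell and 9 had a positive value, with a median of 0.14. Of 8 core proteins of the snoRNA particle, 1 rose (Nhp2, 0.36 ± 0.11, adjusted p = 0.0492) and 0 fell; 2 had an unadjusted p under 0.05, and DESeq2 called 1 higher and limma-voom 0.

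None of the 4 members on the list of miRNA hosts passed by edgeR, DESeq2 or limma-voom, and 1 of them, Mir142hg, had an unadjusted p under 0.05. With 10.6% of all genes tested passing by edgeR, 0 of 4 is not informative. Mir155hg, the host of the inflammation-induced miR-155, had 363, 314 and 273 counts in control and 300, 360 and 236 in DB2313 libraries. The groups overlapped, and the log2 fold change was -0.23 ± 0.13 (SE, adjusted p = 0.341). Mir142hg, the host of a miRNA of blood cells, had 287, 207 and 252 counts in control and 329, 387 and 287 in DB2313 libraries, with 0.29 ± 0.13 (SE, adjusted p = 0.205). Dleu2 had 0.10 ± 0.13 (adjusted p = 0.728) and Mir22hg -0.021 ± 0.14 (SE, adjusted p = 0.953). F630028O10Rik, which spans the gene of the myeloid miR-223, had 40.2 to 46.9 CPM in control and 37.1 to 44.9 CPM in DB2313 libraries, and -0.06 ± 0.10 (SE, adjusted p = 0.792). In all, 10 members hold a miRNA gene, RefSeq had mature sequences for 8 of them, and Gm11613, one of the other two, was the only one of the 10 to pass. These counts are of host transcripts and not of mature miRNAs.

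Of 4 members on a list of immune and myeloid RNAs, AW112010 rose and 0 fell by edgeR, DESeq2 or limma-voom, and 2 had an unadjusted p under 0.05. Among all genes tested 10.6% passed by edgeR, and 4 members are too few to compare with that share. Gm14005, known as Morrbid, a regulator of myeloid cell lifespan, had 0.13 ± 0.19 (SE, adjusted p = 0.751). Gm16685 shares 6.60% of its exon bases with a coding gene and lies opposite Il7, a lymphocyte growth factor gene. It had -0.33 ± 0.13 (SE, adjusted p = 0.145), while Il7 rose by 1.14 ± 0.25 on the log2 scale (SE, adjusted p = 0.00884).

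**Figure D4:**
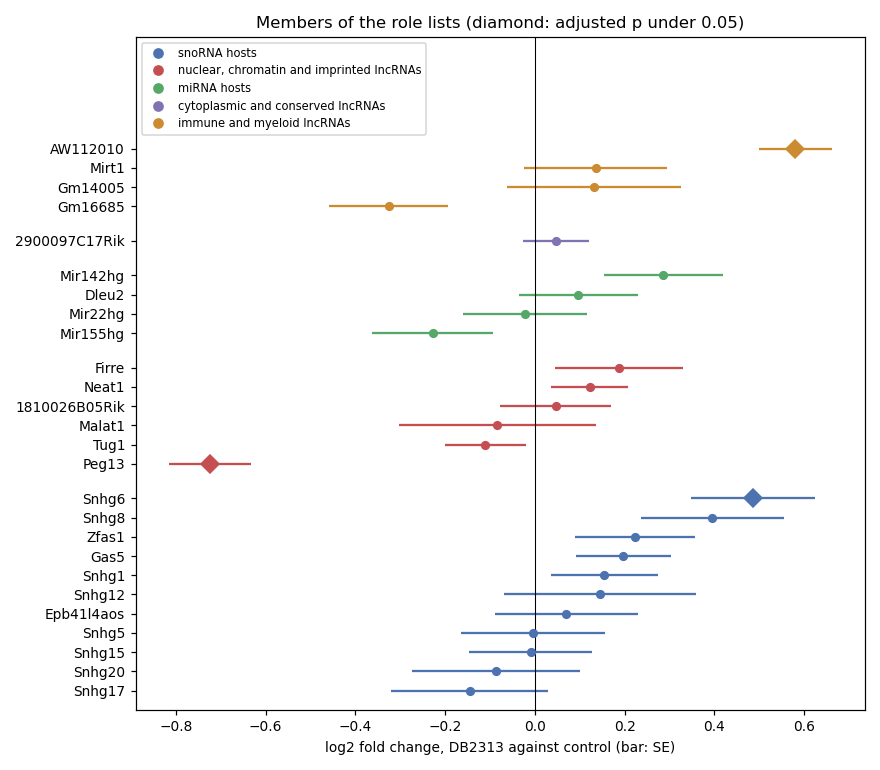
Log2 fold change with its SE for the 26 members on the lists of roles, grouped by list, with diamonds for an adjusted p under 0.05. AW112010, Snhg6 and Peg13 passed, and 7 of the 11 snoRNA hosts lie to the right of 0.

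Lists of genes for the machinery that noncoding RNAs work with held 8 to 16 genes each, against a background of 10.6% of all genes that passed. Of 16 paraspeckle proteins 0 passed by edgeR or limma-voom, 1 had an unadjusted p under 0.05 and DESeq2 called 1 higher, with a median log2 fold change of 0.025. Of 12 factors of nonsense-mediated decay, which degrades many snoRNA host transcripts, 0 passed by any of these tools and 2 had an unadjusted p under 0.05, with a median of -0.07. Of 14 tested genes of the nuclear exosome and its adaptors 1 fell (Zfc3h1, -0.31 ± 0.09, adjusted p = 0.0391) and 0 rose by any of the tools. Of 10 miRNA processing genes 0 passed by any tool and 0 had an unadjusted p under 0.05. Of 12 protein partners of Xist, many of which bind other nuclear RNAs, 1 fell (Pcgf5, -0.26 ± 0.07, adjusted p = 0.0346) and 0 rose by any tool.

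Many members lie close to or over coding genes. They measured 269 to 20771 bases with a median of 3122, and were spread over 20 chromosomes. Of the 119, 30 overlapped no other gene, 14 were divergent from a coding gene (on the other strand, with the coding start upstream of the member's own and within 1 kb), and 34 shared exon bases with a coding gene, 10 of them over more than 20% of their exon bases. For 37 pairs of a member and a tested coding partner, 23 had the same sign, and Pearson's r of the log2 fold changes was 0.46 across pairs. This is a description, since pairs share libraries and, where strands were not kept, reads. The pair of BE692007 and Ms4a6c, at 1.27 and 1.29, had the largest values on both sides and weighs heavily on r, which was not computed without it. Some members, such as Brip1os, enter with more than 1 partner. In 8 of the 37 pairs the partner passed: Ms4a6c, Ddhd1, Il7, Chd2, Mob3a, Dcps, Slc43a2 and Rab10. With Ms4a6c and Ddhd1 the member passed too, in the same direction. Gm26541, with 48.4% of its exon bases shared, had -0.40 beside -0.38 ± 0.07 (SE, adjusted p = 0.00332) for Mob3a, but did not itself pass.

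**Figure D5:**
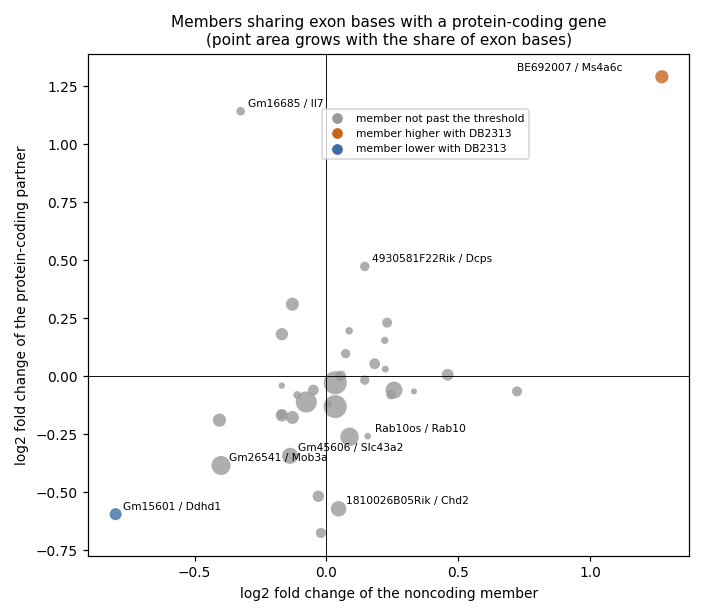
Each point is 1 of 37 pairs of a noncoding member (horizontal axis, log2 fold change) and a protein-coding gene with which it shares exon bases (vertical axis), and its area grows with the share of the member's exon bases. The pairs BE692007 with Ms4a6c and Gm15601 with Ddhd1 lie at the far ends, at 1.27 and 1.29, and at -0.80 and -0.59, while Il7 at 1.14 faces Gm16685 at -0.33.

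The nearest tested coding gene by start site passed for 3 of the 15 members that passed (Gm11613 with Mllt6, Gm15601 with Ddhd1 and Snhg6 with Tcf24), each in the same direction. Tcf24 had few reads, with 0.753 to 1.29 CPM in control and 1.40 to 3.85 CPM in DB2313 libraries. For the other 104 members the nearest gene passed for 13, and 6 of these had the member's sign. Over all 119 pairs, 60 had the same sign, and 10.6% of all genes tested passed. The nearest genes of Gm6093, Peg13, AI504432 and AW112010 did not pass. Of the 15, 3 shared exon bases with a coding gene (BE692007, Gm15601 and Snhg6 with 11.1%). Among the 85 members that shared none, 7 rose and 5 fell, 14.1% of them. Another limit is sequence shared with distant loci. By megablast, 32 of the 119 members matched another annotated transcript at 95% identity or more over at least 100 bases. Most such matches were short, but Gm10076 matched Rpl41, a ribosomal protein gene, over 383 bases at 99.5%.

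As a description with no test, the members' median coefficient of variation between libraries of a group was 11.8% in control and 12.1% in DB2313 libraries, against 6.31% and 8.41% for 9918 protein-coding genes with a mean of at least 100 counts. The members had fewer counts, with a median of 209.7 against 718 for those coding genes, so the figures are not matched on abundance. The median SE of a member's log2 fold change was 0.15. Gm10076 varied most, with 468, 369 and 1015 counts in the DB2313 libraries, followed by Gm47662 with 39, 117 and 140 and Malat1. No library was the highest or the lowest of its group throughout: control replicate 1 was the highest control for 55 members, and control replicate 2 the lowest for 55. In the DB2313 group, replicate 1 was the highest for 48 members and replicate 3 the lowest for 50. Of the 119 members, 79 (66.4%) changed by less than 20%, a smaller share than the 78.9% of all genes with a mean of at least 100 counts. This comparison is not matched on abundance either, with a median of 209.7 counts for members against 696 for those genes.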

How the data were processed

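RNA of 3 control and 3 DB2313 libraries was sequenced. The table deposited by the authors holds whole-number read counts, not normalised, for each gene and library, with the length, position and class of each gene. The columns are named BMDC and SPI1 with a replicate number, not as in the labels. The former were taken as control and the latter as DB2313, the Spi1 inhibitor. This was inferred from the names, and every direction given depends on it. No column (0) was left without a sample. The submitters' processing notes name CASAVA 1.8, HISAT2 2.0.5 and featureCounts 1.5.0-p3, whereas the methods of the study name LifeScope. Neither strandedness nor the treatment of multiply mapped reads is given in the sources used here. Positions are given as GRCm38, because 98.3% of 54409 identifiers found in GENCODE M21 carried identical coordinates there.

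Counts were tested with edgeR 4.0.16 in R 4.3.3 (TMM scaling, filterByExpr, quasi-likelihood test, group as the only term), with an adjusted p threshold of 0.05 over 14174 genes, and the common biological coefficient of variation was 9.66%. CPM are scaled by TMM. The script was tested on simulated counts of 14210 genes, where it recovered 100% of 2-fold and 82% of 1.5-fold changes with 4 false calls. The simulation gave every gene the same dispersion and drew the changed genes from all with a mean of at least 100 counts. The members had fewer counts and varied more than coding genes, so these recovery rates may be too high for them. Alternatives were DESeq2 1.42.0, limma-voom (limma 3.58.1), DESeq2 size factors, scaling to library totals, a filter on the mean (10 counts) or none, robust edgeR, a gene length offset, the replicate number as a block, and each library left out. Transcripts were compared with blastn 2.17.0.

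Named members were those on the role lists, up to 10 that rose and 10 that fell by fold change, the 10 with the highest level per kilobase and those next to the count limit. Other genes named (neighbours, partners and members near the threshold) were picked once their values had been seen. The members and lists were chosen with earlier results of these data known. The exact permutation test of the share of counts was two-sided.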

Additional observations from a re-analysis of the deposited data

How the results depend on the processing

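None of the 15 members that passed changed direction under any of the 16 alternatives to the test, the scaling, the filter or the libraries used. In all 15 the groups did not overlap in CPM, so leaving out 1 library could hardly turn a sign. The number of members that passed moved. When each library was left out in turn, the members that rose numbered 6 to 13, those that fell 1 to 14, and the members' median log2 fold change ran from -0.032 to 0.059, so that neither the count of falls nor the sign of the median was firm. Among the 30 members that overlap no other gene 3 rose and 0 fell by edgeR, and among the 44 with a mean of at least 300 counts 4 rose and 3 fell, with fewer members tested in each. DESeq2 called 12 higher and 6 lower, limma-voom 10 and 6, and edgeR with no filter 13 and 8. The difference in the share of counts was 0.0481 percentage points, and 0.0245 without the member with the most counts.

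Libraries with the same replicate number did not deviate together (correlations of 0.0035, -0.024 and -0.12), so the numbers gave no pairing. With a block for that number 8 members were higher and 4 lower, 11 of them among the 15, while A930024E05Rik was added. Members near 0 changed sign. Snhg5 had a log2 fold change of 0.0014 by DESeq2, 0.00077 with DESeq2 size factors, 0.019 with library totals, 0.0062 with no filter, 0.016 by limma-voom and 0.019 with the block. Snhg15 had 0.011 with library totals and 0.00075 with no filter, and Mir22hg 0.00058 with library totals. Epb41l4aos had -0.056 with a gene length offset and -0.049 with the block and the offset together. Gm10076 had -0.065 by limma-voom, -0.017 with the block and -0.14 with the block and the offset. With single libraries left out, the log2 fold changes ran from -0.10 to 0.15 for 1810026B05Rik, -0.30 to 0.048 for AI480526, -0.0035 to 0.11 for AU020206, -0.041 to 0.23 for Epb41l4aos, -0.52 to 0.42 for Gm10076 and -0.033 to 0.29 for Gm14005. They ran from -0.56 to 0.14 for Malat1, -0.13 to 0.11 for Mir22hg, -0.16 to 0.33 for Snhg12, -0.11 to 0.15 for Snhg15, -0.25 to 0.016 for Snhg17, -0.32 to 0.060 for Snhg20 and -0.18 to 0.099 for Snhg5. The cause of these reversals was not tested. Restricting the members to the 109 whose symbol names no protein (8 rose, 5 fell) or the 85 that share no exon bases with a coding gene (7 rose, 5 fell) was chosen after seeing the data. At about 100 counts, counting error alone limits the smallest change that can be called.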

Other observations

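Noncoding rows under the limit of 100 counts were outside the comparison above. Of the 671 that were tested, with a median of 20.2 counts, 13 (1.94%) passed, 2 higher and 11 lower with DB2313, and 67 had an unadjusted p under 0.05. Of all genes tested 10.6% passed, 4.66% as higher and 5.94% as lower. The share among all genes under the limit was not computed, so these figures are not matched on abundance. Gm37696, an antisense row, had 98, 98 and 80 counts in control and 32, 40 and 41 in DB2313 libraries, a log2 fold change of -1.42 ± 0.24 (SE, adjusted p = 0.00124). Gm15663 had 87, 102 and 96 counts in control and 56, 43 and 27 in DB2313 libraries, with -1.31 ± 0.27 (SE, adjusted p = 0.00516). Gm32511 had the lowest value, -1.99 ± 0.49 (SE, adjusted p = 0.0167), on 25, 30 and 49 against 3, 15 and 11 counts. The rows that rose were Bloc1s6os, with 21, 22 and 19 counts in control and 67, 64 and 27 in DB2313 libraries, and Gm38399, with 40, 47 and 48 against 56, 108 and 125. These 5 rows were chosen after their values were seen. Both rises rest on DB2313 libraries that differ by more than 2-fold.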
